A study of Mus musculus with 2 samples.

Results

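Genes of the WNT pathway were examined in lung epithelial cells of mice exposed to smoke for 3 months and of air-exposed controls. The set comprised the secreted WNT ligands, the Frizzled receptors, the LRP co-receptors, the R-spondin and LGR system, the secreted antagonists, intracellular regulators and the TCF/LEF factors. A gene was taken when its symbol in the platform annotation began with Wnt, Fzd, Sfrp, Dkk or Rspo followed by a digit, or was Lgr4, Lgr5, Lgr6 or one of 16 further named symbols. This gave 57 genes of 19505 named genes, each measured by 1 probe, and 3 of the 16 symbols were not analysed here.

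The 2 groups were a smoke sample, from mice after 3 months of smoke exposure, and an air sample, from control mice after 3 months of air exposure. In both, cells had been sorted from the lung as SPC/GFP+ and EpCAM+, SPC being the surfactant protein made by alveolar type 2 cells and EpCAM an adhesion protein of epithelia. RNA of each group was hybridised to 1 microarray (Clariom S Mouse, which samples whole transcripts), and the deposited value of each probe was taken as log2 signal. The kind of smoke, the number, strain, sex and age of the mice, any pooling and the reporter construct are not given in the sources read for this work. With 1 array per group there was no test across samples, and every difference, given as smoke minus air, compares these arrays.

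WNT ligands are lipid-modified proteins that act over short distances. They bind a Frizzled receptor together with LRP5 or LRP6, which stops a destruction complex built on AXIN from degrading beta-catenin, and beta-catenin then works with TCF/LEF factors on target genes. In the mouse lung, a subset of alveolar type 2 cells is known to respond to WNT and to act as progenitors, with ligands from neighbouring fibroblasts and from the cells themselves.

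The largest difference in the set was that of Tcf7l1, a TCF/LEF factor that acts mainly as a repressor, which was 2.17-fold lower in smoke. Notum, a secreted enzyme that inactivates WNT ligands, followed at 1.92-fold lower. Of the 9 Frizzled receptors above the level filter, 6 were lower, by 1.31-fold to 1.68-fold, where 44.7% of all genes above the filter were lower. Fzd9, 1 of the 6, passed the filter through the air array alone. With the filter set on the mean of both arrays, 5 of 8 receptors were lower and 3 higher. For each of the 6, between 15.5% and 37.5% of the genes nearest in mean level differed by at least as much in either direction. The LRP co-receptors and both AXIN genes were higher in smoke, by at most 1.57-fold. Of the 10419 genes above the filter, 5661 were higher too. For these co-receptor and AXIN genes, between 21.0% and 59.5% of the genes nearest in level differed by at least as much. Of the 19 ligand genes, 18 had signals below the filter on both arrays. No member was at least 2-fold higher.

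The level filter was 4.57, the median of all deposited values, and a gene was above it when its brighter array reached it. Among the 57 members 25 were above it, and 32 were below it on both arrays. Of the 25, 1 was at least 2-fold lower in smoke (4.0%), against 2.48% of the 10419 genes of the array above the filter, and 0 were at least 2-fold higher, against 3.94%. These shares of the members rest on 1 gene and 0 genes and lie near those of all genes.

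At 1.5-fold, 4 of the 25 members were lower (16%, against 9.19% of all genes above the filter) and 1 was higher (4.0%, against 14.5%). Counting any difference, 16 of the 25 were below their air signal in smoke (64.0%, against 44.7% of all genes above the filter). The median difference of the 25 was -0.39, and that of all genes above the filter was 0.06. Wnt9b, Fzd9, Rspo2 and Wif1 passed the filter through the air array alone and none through the smoke array alone, which favours lower values among the members kept. With the filter set on the mean of both arrays, 23 members were left, of which 14 were lower and 9 higher, against 4360 lower and 5455 higher of 9913 genes. The medians were -0.39 for these members and 0.06 for these genes. Over all 57 members the median was -0.06, with 35 lower, 21 higher and 1 equal. Over all 19489 genes with a measurable difference it was -0.02, with 9971 lower and 9302 higher.

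**Figure D1:**
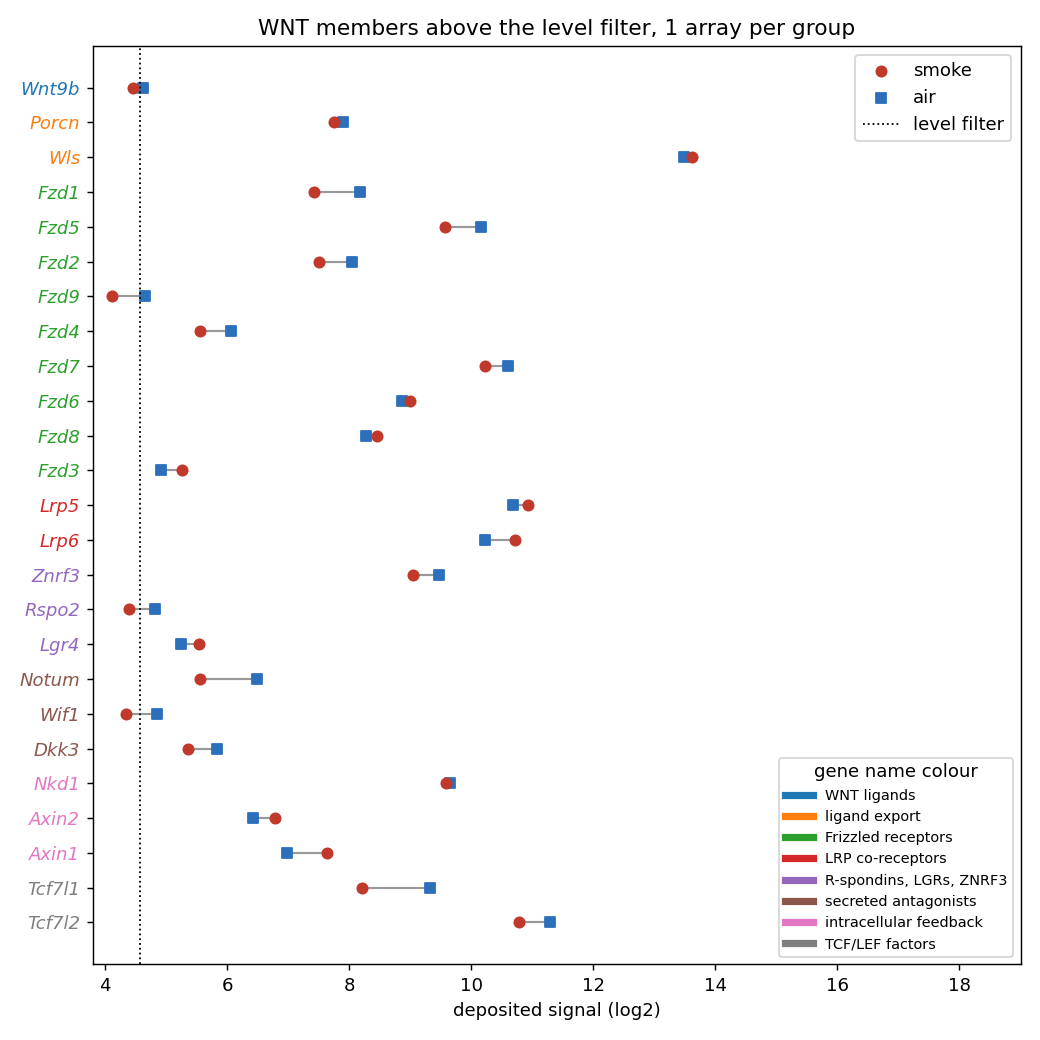
Deposited log2 signal (horizontal axis) of the 25 members above the level filter on the smoke array (red circles) and the air array (blue squares), 1 array per group and no error bars, with gene names coloured by role and the filter of 4.57 as a dotted line. Tcf7l1, Notum and Fzd1 show the widest gaps with smoke on the left, and Axin1 the widest with smoke on the right.

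The TCF/LEF factors bind DNA and pass the signal to target genes. Tcf7l1 stood at 8.21 in smoke and 9.33 in air, a log2 difference of -1.12. Among the 200 genes nearest to it in mean level, 3.5% had a difference at least as large in size, and the robust SD of their differences, a scaled median absolute deviation, was 0.42. Tcf7l2, the family member best known from intestine and liver, was lower too, at 10.79 in smoke and 11.29 in air (-0.50), and 26% of its level-matched genes differed by as much. Lef1, which is abundant in T cells and induced by WNT in many tissues, reached the filter on neither array, at 3.05 in smoke and 3.18 in air.

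Start regions of Tcf7l1 and Fzd1, which were lower in smoke, and of Axin2, the standard WNT target, are shown because the TCF/LEF core sequence was searched for in them. Windows of 250 bases before a transcription start were taken from RefSeq (build GRCm38.p6) and were found for 36 of the 57 members, 43 windows in all. Each is written 5′ to 3′ along the gene's own strand, and capitals mark CpG dinucleotides.
Tcf7l1, chr6:72789046-72789295, minus strand: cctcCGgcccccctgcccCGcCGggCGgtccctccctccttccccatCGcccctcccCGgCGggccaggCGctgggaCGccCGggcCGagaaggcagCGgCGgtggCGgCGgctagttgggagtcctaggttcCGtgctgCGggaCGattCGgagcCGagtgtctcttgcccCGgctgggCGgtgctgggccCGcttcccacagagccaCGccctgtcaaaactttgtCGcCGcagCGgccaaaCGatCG
Fzd1, chr5:4758217-4758466, minus strand: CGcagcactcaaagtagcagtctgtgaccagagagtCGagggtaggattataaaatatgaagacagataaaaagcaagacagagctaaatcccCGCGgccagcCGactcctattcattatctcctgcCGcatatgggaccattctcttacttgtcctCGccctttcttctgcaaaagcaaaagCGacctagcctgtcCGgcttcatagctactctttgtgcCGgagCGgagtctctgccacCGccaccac
Axin2, chr11:108920099-108920348, plus strand: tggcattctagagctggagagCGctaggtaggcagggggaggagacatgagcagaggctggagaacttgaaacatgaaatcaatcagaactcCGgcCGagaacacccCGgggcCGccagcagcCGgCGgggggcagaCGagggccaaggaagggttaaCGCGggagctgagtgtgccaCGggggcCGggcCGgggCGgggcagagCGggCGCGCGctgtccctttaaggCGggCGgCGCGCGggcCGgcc

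The motif letters searched were CTTTGAT and CTTTGAA on either strand. They occurred in 3 of the members' 43 windows (6.98%), those of Dkk1, Wnt11 and Wnt5b, and in 7.48% of all 32851 windows of the same length. None of the 3 windows printed above holds it, nor does any of the 14 windows of members above the filter, which says only that these letters are not in these stretches. The members' windows had a median GC content of 66.4%, against 52.4% for all windows, and a ratio of observed to predicted CpG of 0.75, against 0.37. The windows of Tcf7l1, Fzd1 and Axin2 hold 29, 12 and 24 CpG dinucleotides.

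The Frizzled proteins are the seven-pass membrane receptors of WNT ligands. Fzd1 had the largest difference of the family, at 7.43 in smoke and 8.18 in air (-0.75), and 15.5% of genes of like level differed by as much. Fzd5, a receptor of canonical ligands in several epithelia, was at 9.57 in smoke and 10.16 in air (-0.59). Fzd2 was at 7.50 in smoke and 8.04 in air (-0.54), and for Fzd5 and Fzd2 the share of level-matched genes with as large a difference was 21.5% and 26%. For each of these 3 receptors, more than 1 in 10 genes of like level thus differed by as much in either direction. The share that was lower by as much was not computed.

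Fzd7, a receptor linked to stem cell maintenance in the intestine, was at 10.22 in smoke and 10.61 in air (-0.39). Fzd4, which serves in endothelium as the receptor of norrin, was at 5.56 in smoke and 6.06 in air (-0.50). Fzd9 crossed the filter, at 4.12 in smoke and 4.66 in air (-0.54). The family was not uniform: Fzd3, Fzd6 and Fzd8 were higher in smoke, and Fzd10 was below the filter on both arrays. Fzd3 and Fzd6, which act with planar polarity proteins, were at 5.27 and 9.0 in smoke, against 4.91 and 8.87 in air (0.36 and 0.13), and Fzd8 was at 8.46 in smoke and 8.28 in air (0.18). The median over all 10 receptors was -0.45. With the filter on the mean of both arrays, which leaves out Fzd9, 5 of 8 receptors were lower and 3 higher, against 4360 lower and 5455 higher of 9913 genes.

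Markers of cells outside the sort differed on the same arrays. Of 11 measured endothelial markers, all above the filter on both arrays, 9 were lower in smoke and 2 at least 2-fold lower. Of all genes above the filter, 44.7% were lower and 2.48% at least 2-fold lower. The mean log2 level of the endothelial markers was 9.61 in smoke and 10.16 in air, with a median difference of -0.68. The 2 past 2-fold were Cldn5, a tight junction gene, at 7.54 in smoke and 8.71 in air, and Eng, endoglin, at 12.60 in smoke and 13.63 in air. Esam and Vwf were higher in smoke, by 0.66 and 0.04. Of 13 fibroblast, pericyte and smooth muscle markers, 9 were lower and 4 higher, and their mean log2 level was 5.31 in smoke and 5.55 in air. Above the filter, 6 were lower and 4 higher, with a median of -0.08. Past 2-fold were Col1a1, a fibrillar collagen, at 5.06 in smoke and 6.24 in air, and Pdgfrb, a pericyte receptor, at 5.09 in smoke and 6.09 in air. Col3a1, another fibrillar collagen, was higher, at 5.24 in smoke and 4.61 in air, as were Dcn (0.38), Acta2 (0.22) and Tcf21 (0.19). The part of these cells in the Frizzled and TCF differences was not tested. In a bulk sample, fewer cells of a type and less RNA per cell cannot be told apart.

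**Figure D2:**
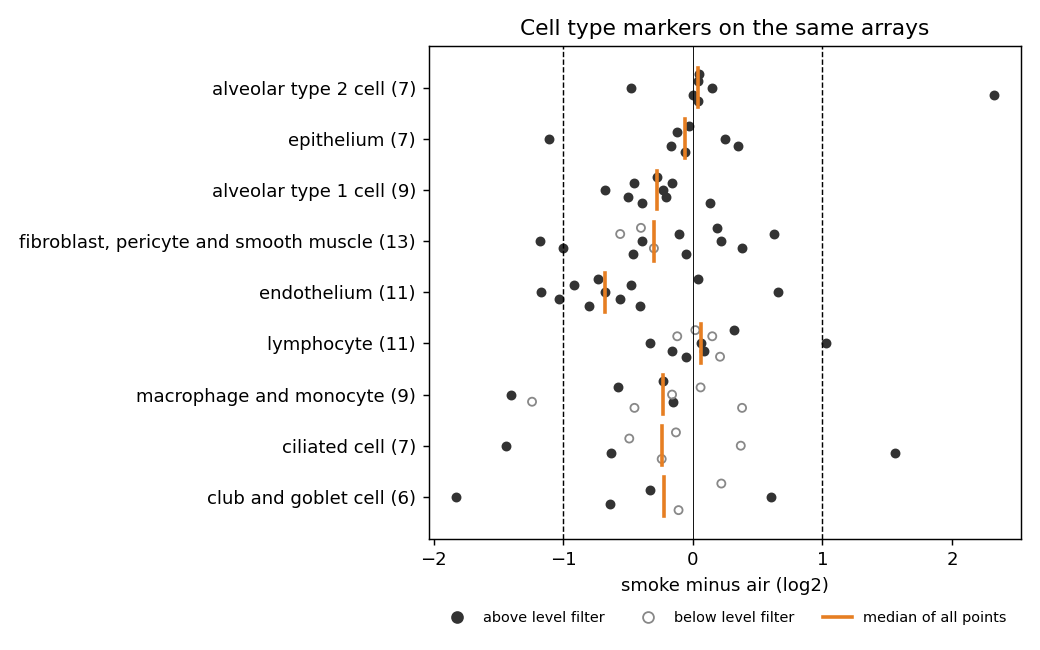
Smoke minus air on the log2 scale for markers of 9 cell types, with the number of genes with a measurable difference in brackets, filled points above the level filter, open points below it, an orange bar at the median and dashed lines at 2-fold. Endothelial markers have the lowest median, -0.68, while alveolar type 2 markers, without the 8 at the upper limit, have a median of 0.04. The type 2 markers drawn have a mean level of 18.80 in smoke and 18.49 in air, still near that limit of 19.93, unlike the endothelial markers.

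The sort was checked against alveolar type 2 markers. Of 15, 8 including Sftpc stood at 19.93, the highest value of the deposited scale, on both arrays and had no measurable difference. Epcam was at 10.92 in smoke and 11.09 in air. Alveolar type 1 markers were also present, with 9 of 9 above the filter, 8 lower in smoke and a median of -0.28. Of all genes above the filter, 44.7% were lower. Among the type 1 markers, Clic5 had the largest difference downwards, -0.68, and Ager the 1 upwards, 0.13. Of 11 lymphocyte markers, 7 were higher and 4 lower, with a median of 0.06, and Cd3d crossed the filter upwards, at 4.66 in smoke and 3.63 in air. Of 9 macrophage and monocyte markers 7 were lower, of 7 ciliated markers 5, and of 6 measurable club and goblet markers 4. In these lists, 5, 4 and 2 markers were below the filter on both arrays. Of all 19489 genes with a measurable difference, 9971 were lower and 9302 higher. Past 2-fold and above the filter in the macrophage, ciliated and club lists were Chil3, Tppp3 and Scgb3a1, with differences of -1.40, -1.44 and -1.83, and Cfap126, with 1.56. Siglecf, below the filter, differed by -1.24. Of the type 2 and epithelial markers, Chil1 differed by 2.32 and Krt8 by -1.11. Scgb1a1, the club cell secretoglobin, stood at 19.93 on both arrays too, so the upper limit is not particular to type 2 markers. The type 2 markers are present as the label says, beside signal of other lineages.

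The LRP proteins, co-receptors that WNT binding brings to Frizzled, were higher in smoke. Lrp6 was at 10.71 in smoke and 10.23 in air (0.48), and Lrp5 was at 10.93 in smoke and 10.69 in air (0.24). Of their level-matched genes, 25.5% and 59.5% differed by as much. The ligand-export pair stayed close. Wls, the carrier that brings lipid-modified WNT to the cell surface, was at 13.62 in smoke and 13.49 in air (0.13). Porcn, the acyltransferase that adds the lipid, was at 7.76 in smoke and 7.90 in air (-0.14). Between 73.0% and 76.0% of genes of like level differed by at least as much.

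Among the WNT ligands, Wnt9b alone reached the filter, on the air array, at 4.46 in smoke and 4.63 in air (-0.17). The 18 others ran from 1.90 to 4.08 in smoke and from 1.96 to 4.02 in air. Their differences lay between -0.55 and 0.49, and over all 19 ligands the median was -0.03, with 12 lower and 7 higher. The 19489 genes with a measurable difference had a median of -0.02, with 9971 lower and 9302 higher. At the ends of that range were Wnt7a, at 3.01 in smoke and 3.56 in air, and Wnt5b, at 3.32 in smoke and 2.83 in air. In the 200 genes nearest in level, 25% and 22.0% differed by as much. Signals this low are close to the bottom of the scale, 1.55, so they show neither presence nor absence of these transcripts.

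Several of these ligands have known roles in lung. Wnt7b, made by developing lung epithelium, was at 3.86 in smoke and 3.93 in air, and Wnt3a, a canonical ligand, was at 3.89 in smoke and 3.83 in air. Wnt5a, the main ligand of the beta-catenin-independent branch, was at 3.47 in smoke and 3.50 in air, and Wnt2, a mesenchymal ligand of lung development, was at 3.07 in smoke and 3.08 in air. All 4 differed by less than 0.1. The others below the filter were Wnt1, Wnt2b, Wnt3, Wnt4, Wnt6, Wnt8a, Wnt8b, Wnt9a, Wnt10a, Wnt10b, Wnt11 and Wnt16.

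**Figure D3:**
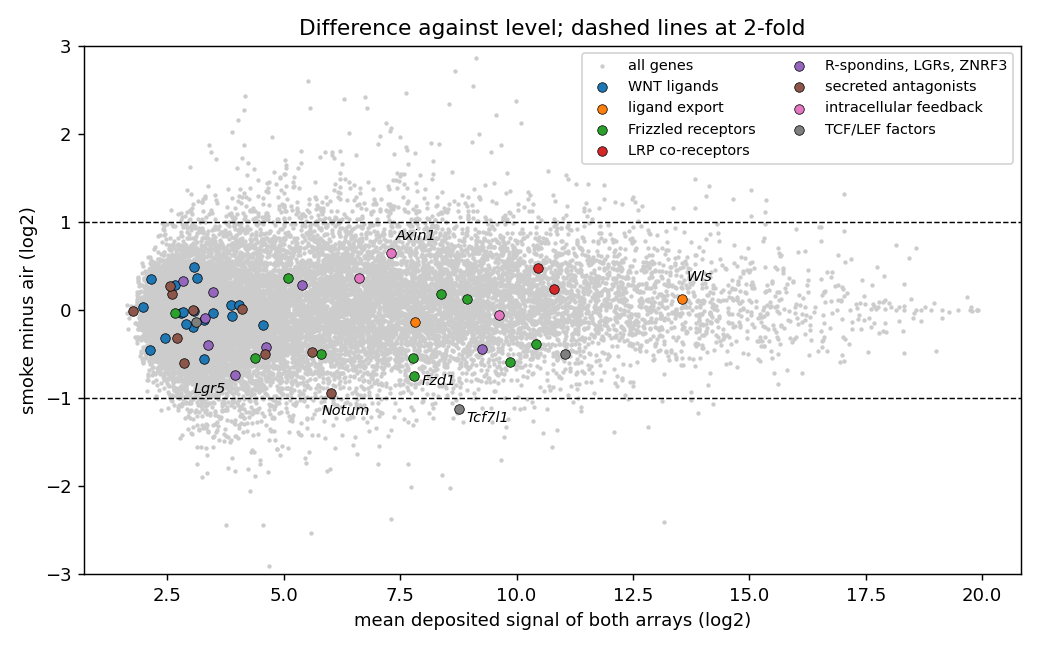
Smoke minus air (vertical axis, log2) against the mean of both arrays (horizontal axis, log2) for all genes (grey; 11 genes beyond 3 in size are not drawn) and for the WNT members, coloured by role, with dashed lines at 2-fold. Nearly all ligands crowd at the low end, and Tcf7l1 is the 1 member beyond a dashed line.

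R-spondins strengthen WNT signals by binding LGR receptors and removing ZNRF3, a ubiquitin ligase that clears Frizzled from the surface. Znrf3, itself a WNT target, was at 9.04 in smoke and 9.48 in air (-0.44). Lgr4, the broadly expressed receptor, was at 5.54 in smoke and 5.25 in air (0.29). Rspo2, a mesenchymal ligand of lung development, was at 4.40 in smoke and 4.82 in air (-0.42), crossing the filter. For these 3 genes, between 34.0% and 61.5% of genes of like level differed by at least as much. Lgr5, the stem cell marker of the intestine, was below the filter, at 3.59 in smoke and 4.33 in air. Its difference of -0.74 was matched in size, in either direction, by 12% of genes of like level. Rspo1, Rspo3, Rspo4 and Lgr6 were also below the filter, with differences of -0.40, 0.33, -0.09 and 0.20.

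Secreted antagonists act outside the cell. Notum, which removes the lipid from WNT and is itself a WNT target, was at 5.55 in smoke and 6.49 in air (-0.94), and 6.0% of level-matched genes differed by as much. Dkk3, a divergent Dickkopf family member, was at 5.36 in smoke and 5.84 in air (-0.48). Wif1, which binds WNT directly, was at 4.35 in smoke and 4.85 in air (-0.50) and crossed the filter. All 3 antagonists above the filter were lower, where 44.7% of all genes above the filter were lower. Wif1 was kept among these 3 by its air signal alone. The other 7, Dkk1, Dkk2, Dkk4, Sfrp1, Sfrp2, Sfrp4 and Sfrp5, were below the filter on both arrays. Dkk2 had the largest difference of those, at 2.55 in smoke and 3.15 in air (-0.60), and Dkk1, an inhibitor of LRP6, was at 3.06 on both arrays. Over all 10 antagonists, 6 were lower, 3 higher and 1 equal, with a median of -0.165. Of all 19489 genes with a measurable difference, 9971 were lower and 9302 higher.

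The intracellular regulators include the most used readouts of the pathway. Axin2, a direct target whose product restrains the signal and which marks the WNT-responsive type 2 cells, was at 6.79 in smoke and 6.43 in air (0.36). Nkd1, another target and feedback inhibitor, was at 9.59 in smoke and 9.65 in air (-0.06). These targets therefore differed by less than the robust SD of level-matched genes, 0.42 and 0.46. Axin1, the scaffold of the destruction complex, was at 7.64 in smoke and 6.99 in air (0.65), the largest difference upwards in the set. Of genes of its level, 21.0% differed by as much, and their own median was 0.20 above 0. The signs of the feedback genes differed: Axin2 was higher, Nkd1 nearly equal, and Notum and Znrf3 lower. Counted from 0, only Notum of these genes, at -0.94, differed by more than the robust SD of its level-matched genes, 0.47. For Znrf3, at -0.44, that SD was 0.46, and the median of its level-matched genes was 0.10. Counted from that median, Znrf3 was lower by more than the SD too.

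Further genes of the pathway came from 5 lists with 121 genes, of which 112 had a measurable difference and 81 were above the filter. Past 2-fold, 0 of the 81 were higher, against 3.94% of all genes above the filter, and 1 was lower, against 2.48%, while 41 were higher and 40 lower by any amount, with a median of 0.02. The 1 gene was Fgf18, a growth factor listed as a WNT target, at 4.70 in smoke and 5.78 in air (-1.08). With the filter at the 75th percentile, or with 16 added to the linear signal, 0 genes were lower past 2-fold.

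Among 15 target genes above the filter, 8 were higher and 7 lower. Myc, the growth regulator, was at 8.80 in smoke and 8.24 in air (0.56). Fgf9, a growth factor of lung epithelium and mesothelium, crossed the filter upwards, at 5.11 in smoke and 4.24 in air (0.87). Fosl1, an AP-1 subunit, and Sp5, a repressor induced directly by WNT, crossed it downwards, at 4.28 and 3.84 in smoke, against 5.13 and 4.59 in air. Targets above the filter thus lay on both sides, with a median of 0.15. At 1.5-fold, 4 of the 15 were lower (26.7%, against 9.19% of all genes above the filter) and 1 was higher (6.67%, against 14.5%). Over all 23 targets the median was -0.13, with 12 lower and 11 higher. Of all 19489 genes with a measurable difference, 9971 were lower and 9302 higher. Vegfa, at 12.85 in smoke and 13.30 in air, stands both in this list and among the type 1 markers.

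The cytoplasmic and nuclear lists had 20 and 21 genes above the filter, with 0 past 2-fold in either direction and medians of 0.05 and 0.10. In the cytoplasm, Amer1, which tethers the destruction complex to the membrane, was at 6.12 in smoke and 7.0 in air (-0.88), and Dvl3, a Dishevelled protein that relays the signal from Frizzled, was at 10.11 in smoke and 9.43 in air (0.68). In the nucleus, Bcl9l, a beta-catenin co-activator, was at 10.59 in smoke and 9.71 in air (0.88), and Ep300, an acetyltransferase used by many pathways, was at 11.64 in smoke and 12.13 in air (-0.49).

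At the cell surface, 9 modulators and 16 genes of planar polarity and alternative receptors were above the filter, again with 0 past 2-fold and with medians of -0.20 and -0.14. Reck, a membrane protein that helps cells sense WNT7 ligands, was at 5.54 in smoke and 6.37 in air (-0.83), and Gpc3, a glypican that binds WNT, was at 7.33 in smoke and 6.86 in air (0.47). Daam1, a formin that links Dishevelled to the cytoskeleton, was at 10.07 in smoke and 10.60 in air (-0.53), while Ror1, a receptor of WNT5A, was at 8.20 in smoke and 7.72 in air (0.48).

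**Figure D4:**
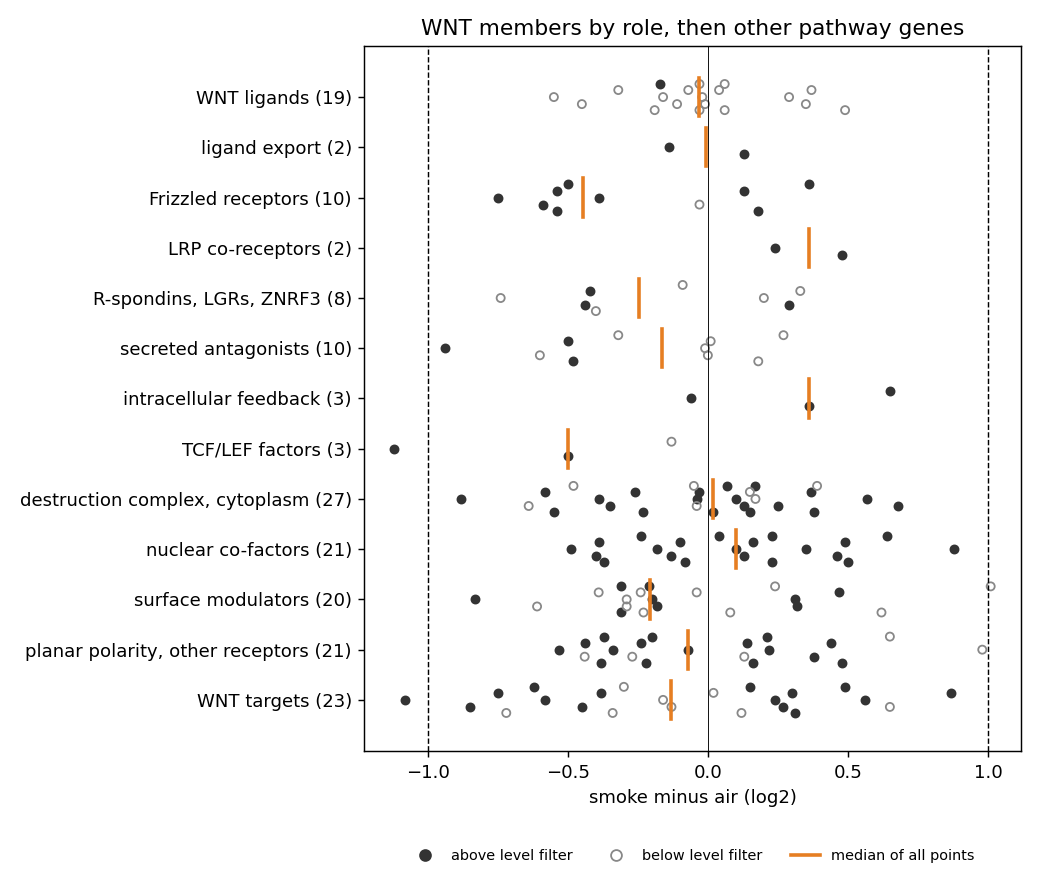
Smoke minus air on the log2 scale for the 57 members by role and, beneath them, for 5 lists of other pathway genes, with the number of genes in brackets, filled points above the level filter, open points below it, an orange bar at the median and dashed lines at 2-fold. Medians here are over all points, above and below the filter. The Frizzled median is -0.45 and that of the 2 LRP co-receptors 0.36, while the medians of the 5 other lists lie between -0.205 and 0.10.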

How the data were processed

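Sorted SPC/GFP+ EpCAM+ lung cells were measured on 1 Clariom S Mouse array per group. The authors deposited log2 signal values, as read from their range of 1.55 to 19.93, since no label states the scale. Per the submitters' processing notes, Transcriptome Analysis Console was used; version, settings and normalization are not given in the sources used. Array medians were 4.53 for smoke and 4.61 for air.

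Of 22206 probes, 19572 had 1 gene symbol, 0 had several and 2634 were unnamed. All 19572 matched a RefSeq table (GRCm38.p6) by Entrez number, with 0 symbols changed. Probes of a gene were averaged, which affected 55 genes and no member. Counts leave out 16 genes that stood at the highest value on each array. To count, a gene had to pass 2-fold and reach 4.57 on its brighter array. For each member the 200 genes nearest in mean level described the background. No p-value, SD or interval over samples exists with 1 array per group, and the number of arrays limits the precision.

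Every member was counted, those above the filter were named with their values, and in the other lists genes past 2-fold, or otherwise the largest in each direction, were named; Myc, Sp5, Fosl1, Fgf9, Epcam, Sftpc, Scgb1a1, Vegfa, Siglecf, Frzb, Col3a1, Dcn, Acta2 and Tcf21 were named with their values already known. The members and lists were chosen with earlier results of these data known. The counting was tested on simulated data with imposed changes larger than the difference of any member. That test does not show how well changes near 2-fold are called. Python 3.11.15, pandas 2.3.3 and statsmodels 0.14.6 were used. Alternatives covered the filter, the fold threshold, quantile normalization, centring on a trend with level (lowess, fraction 0.3), an offset of 16 on the linear scale and the choice of probe.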

Additional observations from a re-analysis of the deposited data

How the results depend on the processing

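No paired analysis was possible because each group had 1 array. For the 25 members above the filter, the sign of the difference was the same under quantile normalization and centring on level. The offset of 16 cannot change a sign. The choice of probe changes nothing here, because each member has 1 probe. Shifts under these settings ran from -0.15 to 0.23. The count of 1 member at least 2-fold lower and 0 at least 2-fold higher held under quantile normalization, centring on level and the offset. It also held under no filter, the 75th percentile filter and the filter on the mean. It was 4 and 1 at 1.5-fold, and 0 and 0 at 3-fold. The median difference of the members, -0.39, was -0.25 with the offset, -0.21 as a mean and -0.06 over all members in the table, where the 32 genes with low signals enter. Quantile normalization gave -0.37 and centring on level -0.36, and the filter on the mean of both arrays, added after seeing the data, gave -0.39.

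For the other pathway genes, 1 was at least 2-fold higher without a filter (Frzb, a secreted Frizzled-related antagonist, at 3.74 in smoke and 2.73 in air) and 4 at 1.5-fold. The 1 gene at least 2-fold lower, Fgf18, was lost with the 75th percentile filter, with the offset and at 3-fold (0 each), and 6 were lower at 1.5-fold. At 1.5-fold these were 4.94% higher and 7.41% lower of the 81 genes above the filter. The shares of all genes above the filter were 14.5% and 9.19%. Signals of the ligands lie near the bottom of the scale, and no detection calls were used.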

Other observations

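Pairs of WNT genes that neighbour each other in the genome were set side by side. All 8 genes of the 4 neighbouring pairs are ligands, and 7 of them were below the filter on both arrays. Wnt10b and Wnt1 on chromosome 15 had differences of 0.37 and 0.35, Wnt3a and Wnt9a on chromosome 11 had 0.06 and 0.06, Wnt9b and Wnt3 on the same chromosome had -0.17 and -0.45, and Wnt6 and Wnt10a on chromosome 1 had -0.32 and -0.02. The signs were the same within each pair, and the pairs lay at most 16.1 kb apart. For Wnt10a, Wnt3a and Wnt9a, however, between 90.5% and 97.0% of genes of like level differed by at least as much. No share of same-sign pairs among other neighbouring genes was computed, so nothing is concluded from these signs.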
